A study of Gallus gallus with 2 samples.

Results

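The HoxD cluster of the chicken lies on chromosome 7 between a pair of regulatory landscapes, the telomeric domain T-DOM and the centromeric domain C-DOM, and the regions of other chromosomes that were ligated to this locus in limb buds are described here. They were found in capture Hi-C libraries, in which chromatin is fixed, cut with DpnII, ligated, and enriched with baits for a segment of 2.92 Mb (galGal5, chromosome 7 from 14946000 to 17870000). A partner is the mate of a read pair that has its other mate in this segment, lies on a chromosome other than 7, and has a mapping quality of 30 or more at both ends. Forelimb buds gave 2659592 such pairs and hindlimb buds 2656602. Cut into windows of 1 Mb, the partners fell in 1000 of the 1001 windows off chromosome 7 that held any pair, in both libraries, and 998 windows had at least 500 background mates in each library and were compared.

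Both libraries came from wild-type White Leghorn embryos at stage HH20, with whole forelimb buds in 1 of them and whole hindlimb buds in the other, and each pooled limb buds of several embryos. Whole buds mix all cell types of the limb, so a pair cannot be assigned to a cell type. With 1 library per limb, every test below compares these libraries and not the conditions, and every interval (95%) covers counting error only. Biotin was left on unligated ends in this protocol, and the share of ligations made at random, which would also join different chromosomes, was not measured.

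In interphase each chromosome keeps to a territory, and ligations between chromosomes are read where territories touch. The chicken genome is divided into a few macrochromosomes, chromosomes of intermediate size and many small, gene-rich microchromosomes, which are known to cluster in the nuclear interior. Hox clusters encode transcription factors that pattern the limb and the body axis. In early limb buds T-DOM enhancers act on the Hoxd genes of the proximal limb, and later C-DOM enhancers act on those of the digits.

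Of 31468978 forelimb and 35045660 hindlimb pairs that passed the quality limit, 8.45% and 7.58% were such pairs. Among pairs with exactly 1 mate in the segment, 57.9% in forelimb and 58.0% in hindlimb led to another chromosome. The T-DOM side of the segment, below 16390000, gave 49.6% and 49.3% of the partners, and the HoxD cluster itself (16315000 to 16394999) gave 1.64% and 1.69%. The sequencing lanes were not alike: between lane 1 and lane 4 the share of these pairs fell from 9.05% to 7.82% (forelimb) and from 8.18% to 6.96% (hindlimb). For this reason lanes were also analysed one by one.

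To ask which chromosomes the segment met, the share of its partners on each chromosome was divided by that chromosome's share of the background, which is all mates off chromosome 7 in pairs between chromosomes with neither mate in the segment (14579376 mates in forelimb, 16779830 in hindlimb). The segment met large chromosomes more often, and small ones less often, than this background. Its partners come from pairs enriched by the baits, and the background from pairs the baits did not target. Ratios to the background or to the rest of chromosome 7 therefore also hold any effect of the capture, which was not tested. Macrochromosomes 1 to 5 took 57.0% of the partners in forelimb and 56.7% in hindlimb, against 52.5% and 52.2% of the background. Microchromosomes, from chromosome 11 on, took 22.2% and 22.5%, against 27.0% and 27.3% of the background, so that their ratio was 0.822 (interval 0.820 to 0.824) in forelimb and 0.824 (0.822 to 0.827) in hindlimb. This direction holds for the background of pairs between chromosomes and for the rest of chromosome 7, and turns when all mates, those within a chromosome included, serve as the background, with a log2 ratio of 0.14 in forelimb and 0.13 in hindlimb.

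Chromosome 1 had the highest ratio, with 442599 forelimb pairs (1.103) and 442031 hindlimb pairs (1.106). Chromosome 2, which carries the HoxA cluster, followed with 1.09 in both libraries, and chromosome 8 with 1.08 and 1.09. The ratios of the large chromosomes thus lay close together, and against all mates, those within a chromosome included, chromosomes 1 and 2 fell below 1, with mean log2 ratios of -0.27 and -0.16. At the other end, the female-specific sex chromosome W had the lowest ratio, 0.408 (0.378 to 0.440) from 736 forelimb pairs and 0.422 (0.392 to 0.455) from 751 hindlimb pairs. At a mapping quality of 40 or more W was no longer the lowest, as its mean log2 ratio moved from -1.27 to -0.69 and LGE64 had -1.07. Against all mates, those within a chromosome included, W had -0.12 and LGE64 had -0.046. The linkage group LGE64 had 0.450 and 0.438, and chromosome 16, known for the major histocompatibility complex, had 0.499 and 0.522. Z, the sex chromosome that both sexes carry, had 0.984 and 0.996.

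Of the 32 chromosomes compared, 1 was at least 1.1-fold above the background in both libraries (3.12%) and 19 were at least 1.1-fold below (59.4%). Chromosome 1 was the one above, and it sits on the limit: in lane 2 alone, without the 0.1% of restriction fragments seen most often, or with the rest of chromosome 7 as the background, no chromosome passed. Over the 29 numbered chromosomes the log2 ratio followed chromosome length, with a Spearman correlation of 0.96 in both libraries, given as a description, since these points share the libraries and the background. In this background a chromosome cannot pair with itself, which lowers the share of large chromosomes by construction. Against the rest of chromosome 7, where this does not apply, the correlation was 0.92 in forelimb and 0.73 in hindlimb. Chromosome 11 (1.08 in both libraries), chromosome 12 (1.01 in both) and chromosome 13 (1.01 and 0.997) stood higher than the other microchromosomes, while chromosome 28 had 0.592 and 0.612 and chromosome 25 had 0.540 and 0.552.

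**Figure D1:**
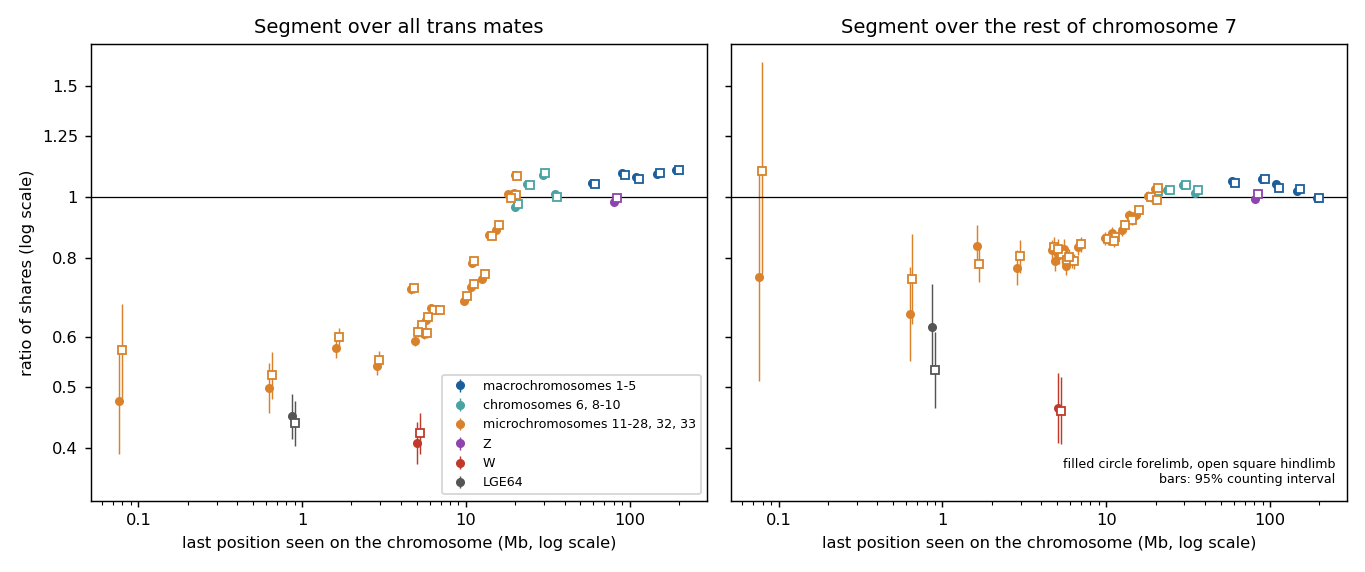
Ratio of the share of partner mates to the share of background mates for each chromosome (log scale), against the last position seen on it (Mb, log scale), with the background of all pairs between chromosomes on the left and that of the rest of chromosome 7 on the right. Circles are the forelimb library, squares the hindlimb library, bars are 95% counting intervals. Ratios rise with length up to about the size of chromosome 11, and W lies lowest in both panels.

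Whether this profile was that of chromosome 7 or of the segment was asked by setting the segment against the rest of its own chromosome (596618 forelimb and 686272 hindlimb mates). By Fisher's exact test with Benjamini-Hochberg adjustment, 8 of 32 chromosomes took a larger share with the segment in both libraries (25% of those tested) and 18 a smaller one (56.2%). For most chromosomes the differences were smaller than against the full background. Chromosomes 5 and 6 were exceptions in both libraries. Chromosome 5 had 1.061 and 1.053 here, against 1.055 and 1.049 with the full background. Chromosome 6 had 1.016 and 1.025, against 1.014 and 1.001. Chromosome 4 had the highest ratio, 1.07 in both libraries, and chromosome 1 had 0.997 and 0.998, with no difference called. The rest of chromosome 7 was itself low in microchromosome partners, with a ratio to the background of 0.898 in forelimb and 0.901 in hindlimb. Pieces of chromosome 7 as long as the segment spread widely: over 12 pieces the microchromosome share ran from 18.2% to 29.6% (forelimb) and from 19.0% to 30.0% (hindlimb). The segment, at 22.2% and 22.5%, lay inside this range, above 5 pieces and below 7 in each library.

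The 1-Mb windows showed that single regions stood out within chromosomes. Of 998 windows, 84 were at least 25% above the background in both libraries (8.42%) and 159 were at least 20% below it (15.9%), which is the same fold in either direction. With the rest of chromosome 7 as the background, 4 were above and 67 below these limits. At the upper limit, the window from 21 to 22 Mb of chromosome 6 was just inside, with 1.251 and 1.276, and that from 8 to 9 Mb of chromosome 11 just outside, with 1.317 and 1.2498. At the lower limit, the window from 11 to 12 Mb of chromosome 6 was just inside, with 0.792 and 0.800, and that from 193 to 194 Mb of chromosome 1 just outside, with 0.775 and 0.804. The libraries gave close values: the hindlimb minus forelimb difference of log2 ratios had an SD of 0.066 over windows, where counting alone gives 0.059, while the mean of both had an SD of 0.38. A median window held 2544.5 forelimb and 2536.5 hindlimb pairs.

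The 5 windows with the highest ratios lay on chromosomes 4, 1 and 13. On chromosome 4 the window from 6 to 7 Mb had 3300 forelimb pairs (1.45, interval 1.40 to 1.51) and 3244 hindlimb pairs (1.4999, 1.44 to 1.56), and its neighbours from 7 to 8 Mb (1.47 in both) and from 8 to 9 Mb (1.45 and 1.43) were the second and the fourth. They lie near the start of the chromosome, whose short arm is known as an ancestral microchromosome; how far that arm reaches was not determined here. The third was the window from 41 to 42 Mb of chromosome 1, with 2656 forelimb pairs and 2564 hindlimb pairs (1.45 in both). The fifth, from 5 to 6 Mb of microchromosome 13, had 1.40 and 1.43. With the rest of chromosome 7 as the background, all 5 were lower. The mean log2 ratios on chromosome 4 went from 0.56 to 0.37, from 0.56 to 0.33 and from 0.53 to 0.30. That on chromosome 1 went from 0.54 to 0.26, and that on chromosome 13 from 0.50 to 0.31. Against all mates, those within a chromosome included, the window of chromosome 1 had 0.080 and the others had 0.59 to 0.83. Windows called higher were often neighbours, as 61 of all 84 lay in runs of 2 or more, and so were windows called lower (136 of 159). The longest run of higher windows covered 8 from 36 to 44 Mb of chromosome 1, and another of 6 ran from 9 to 15 Mb of chromosome 11.

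The lowest windows lay on Z and W. On Z the window from 74 to 75 Mb had 12 forelimb pairs (0.122, interval 0.062 to 0.214) and 7 hindlimb pairs (0.067, 0.027 to 0.140), and the next 3 windows, up to 78 Mb, had ratios from 0.093 to 0.157. These 4 windows also held few restriction fragments with any pair, from 264 to 374, against a median of 2032.5 per window, and their counts are small. On W the window from 1 to 2 Mb had 40 and 53 pairs (0.283 and 0.397), and all 6 windows of W were called lower. The background of these windows was also unusual. Pairs between chromosomes made up 54.8% to 57.2% of its mates (forelimb) and 55.8% to 58.0% (hindlimb) in the 4 windows of Z. In that of W they made up 80.7% and 79.4%, against a median of 29.7% per window. Against all mates, the mean log2 ratio of the W window moved from -1.58 to -0.26, while those of Z were -2.68 to -2.16. Roles of the low number of fragments and of this background in these ratios were not tested. At a mapping quality of 40 or more and in single lanes no value was obtained for these 4 windows of Z or that of W. Their ratios could thus not be checked in those settings.

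Called windows were spread unequally over chromosome classes and along chromosomes. Of 186 microchromosome windows, 107 were lower (57.5%) and 15 were higher, the latter on chromosomes 11, 12 and 13. Of 611 macrochromosome windows, 25 were lower and 51 were higher. Most lower windows of macrochromosomes were near an end: 20 of 25 lay within 5 Mb of it, against 1 of the 51 higher windows and 34 of the 535 that were not called. On chromosome 1 a run of lower windows spanned 194 to 197 Mb, on chromosome 5 it spanned 55 to 60 Mb, and on chromosome 9 it covered the first 5 Mb. Chromosome 4 held both kinds, with lower windows in its first 3 Mb and the highest windows from 5 to 10 Mb.

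The ratio of a window varied with the partners it had elsewhere. For each window the share of its background mates that were paired with a microchromosome was taken. The same mates form the denominator of the window's ratio, so part of the relation is built in. Over the 611 macrochromosome windows the Spearman correlation of this share with the log2 ratio was -0.42, and over the 186 microchromosome windows it was -0.93, both as descriptions of windows that share libraries and depth. With the rest of chromosome 7 as the background of the ratio, the correlations were -0.57 and -0.79. In the quartile of macrochromosome windows with the lowest microchromosome share (15.9% to 21.5%) the median ratio was 1.16, and in the quartile with the highest (26.2% to 42.4%) it was 1.02. Among microchromosome windows the medians fell from 1.19 in the lowest quartile to 0.611 in the highest. The median of the lowest quartile of microchromosome windows was thus above that of any quartile of macrochromosome windows.

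**Figure D2:**
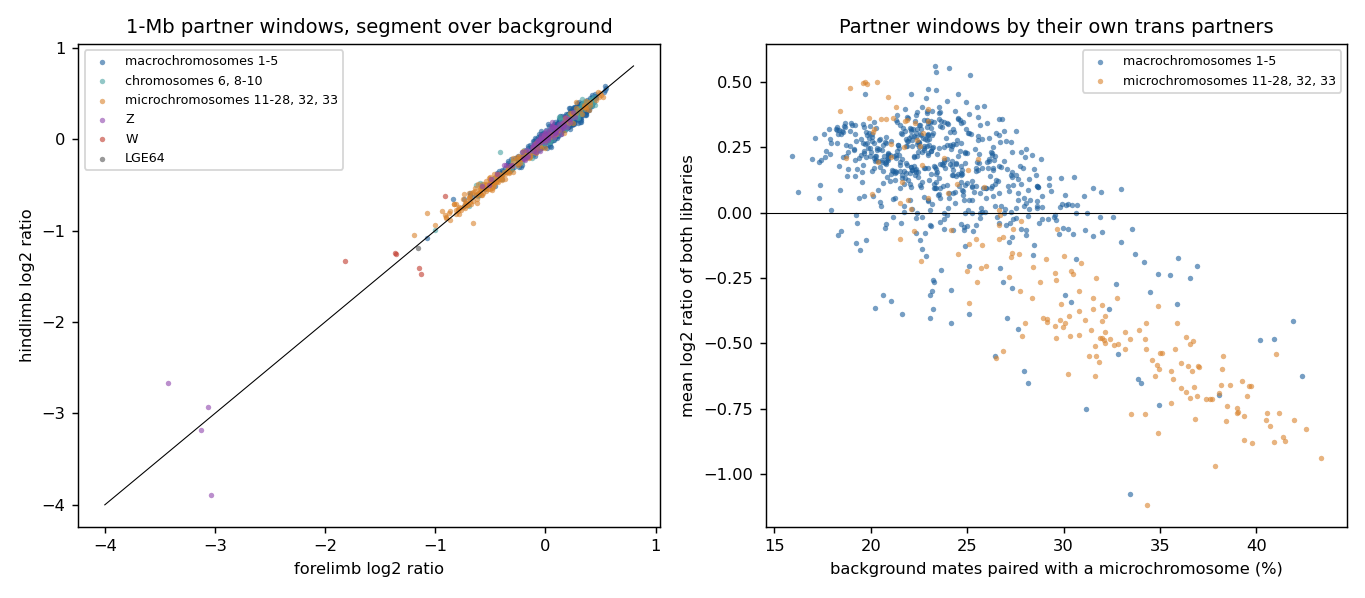
Log2 ratio of the share of partner mates to the share of background mates for 998 windows of 1 Mb. Left, forelimb against hindlimb library, with the line of equal values and 4 windows of Z far below the rest. Right, mean log2 ratio of both libraries for macrochromosome and microchromosome windows against the percentage of their background mates that are paired with a microchromosome, where values fall from left to right.

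T-DOM and C-DOM switch on at different times in the limb, so the partners of the T-DOM side and of the C-DOM side were compared. The differences were small. Of 32 chromosomes, 5 took a larger share with the T-DOM side in both libraries (15.6%), namely Z and chromosomes 1, 2, 3 and 4, and 9 took a smaller one (28.1%). Z had a T-DOM to C-DOM ratio of 1.03 in each library, and chromosomes 1 to 4 lay between 1.01 and 1.02 in both. Chromosome 19 had the lowest called ratio, 0.936 in forelimb and 0.928 in hindlimb, followed by chromosome 15 with 0.954 and 0.937.

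Among windows, 9 were higher (0.902%) and 39 were lower (3.91%) with the T-DOM side in both libraries, with mean ratios from 1.103 to 1.161 and from 0.833 to 0.909. The window from 6 to 7 Mb of chromosome 3 was the highest, with 1250 pairs from the T-DOM side and 1126 from the C-DOM side in forelimb (1.126) and 1284 and 1104 in hindlimb (1.198). The others of the 5 highest were on chromosome 8 (12 to 13 Mb, 1.14 in both), chromosome 11 (13 to 14 Mb, 1.14 and 1.13), chromosome 4 (7 to 8 Mb, 1.13 and 1.15) and chromosome 2 (57 to 58 Mb, 1.12 and 1.13). All 9 had a ratio above 1 with the whole segment too, as did 11 of the 39 lower windows and 619 of the 950 not called. The T-DOM side is part of the segment, so this agreement is partly built in. The lowest window, from 2 to 3 Mb of chromosome 14, had 1649 pairs from the T-DOM side and 2047 from the C-DOM side in forelimb (0.817) and 1747 and 2117 in hindlimb (0.850). Windows of Z (1 to 2 Mb, 0.827 and 0.842), chromosome 8 (21 to 22 Mb, 0.849 and 0.835, and 27 to 28 Mb, 0.873 and 0.814) and chromosome 3 (9 to 10 Mb, 0.869 and 0.859) came next. Of the 39 lower windows, 20 were on microchromosomes and 12 on chromosomes of intermediate size, and of the 9 higher windows 4 and 2 were, where these classes hold 186 and 112 of the 998 windows.

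Fewer calls were made within the landscapes. With the sides cut to T-DOM (15920000 to 16314999) and C-DOM (16395000 to 16979999) alone, 3 windows were higher and none lower, by Fisher's exact test in both libraries, and 1 chromosome was lower where 9 had been. These parts hold fewer pairs, which also lowers the number of calls, and they leave out the flanks. C-DOM as cut here is longer than the domain in which the study summed its contacts. That domain ends between 16646000 and 16745999. All values for C-DOM and beyond C-DOM, here and below, rest on the longer C-DOM. They were not obtained with the shorter domain. Microchromosomes took 24.5% of the partners in T-DOM in both libraries, above the 23.3% and 23.9% in C-DOM. Beyond T-DOM they took 20.5% and 20.8%, and beyond C-DOM 21.8% and 22.1%. The smaller shares of microchromosomes with the T-DOM side are thus not those of T-DOM itself. Which of these points changed the calls was not tested. No chromosome or window differed between the limbs in its T-DOM to C-DOM ratio after adjustment. The Wald test of the log ratios gave a smallest adjusted p of 0.0743 over chromosomes and of 0.289 over windows. Unadjusted values were under 0.05 for 3 of 32 chromosomes and 56 of 998 windows.

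The segment was not uniform in how often it left its chromosome. For each 100-kb block the trans share was taken, that is the pairs with another chromosome as a percentage of these pairs plus those that reached more than 3 Mb along chromosome 7. On this measure it was 66.7% in forelimb and 66.5% in hindlimb beyond T-DOM, rose to 69.5% (interval 69.3% to 69.6%) and 68.6% (68.5% to 68.7%) in T-DOM and to 69.3% (69.0% to 69.7%) and 69.0% (68.6% to 69.3%) in the HoxD cluster, and was 67.2% and 66.8% in C-DOM and 66.1% and 66.3% beyond C-DOM. The limit of 3 Mb leaves out pairs with both mates in the segment, so that no counted pair is baited at both ends. The order of the parts depends on this limit. Pairs baited at both ends do enter the share among all pairs, in parts and in blocks, and their effect on it was not tested. Among all pairs with a mate in the part, the share with another chromosome was lowest in the cluster, at 18.002% and 17.94%. It was 30.2% and 28.8% in T-DOM and 29.2% and 29.1% in C-DOM. Beyond T-DOM it was 31.9% and 31.6%, and beyond C-DOM 31.9% and 31.7%. A pair between parts counts in each of them, so this share also depends on the length of a part. The parts are unequal in length, so their order on it cannot be read as a difference between them. By the mean of both libraries, the highest block of the trans share was that from 16046000 to 16145999 (70.0% in forelimb, 69.0% in hindlimb), in which the study places the T-DOM elements CS39 and CS93. In hindlimb alone the block after it was higher. Among all pairs the block from 16046000 to 16145999 had 27.2% and 26.0%, inside the range of all blocks. That range was 19.2% to 30.1% in forelimb and 19.0% to 29.8% in hindlimb. The share among all pairs was lowest in the block from 16346000 to 16445999 and highest in the first and last blocks of the segment. In forelimb the blocks inside T-DOM had 27.2% to 27.3%. Blocks beyond T-DOM lay on both sides of this, with 26.2% from 15546000 and 28.3% from 15346000. In hindlimb the blocks inside T-DOM had 25.6% to 26.0%. Most blocks beyond T-DOM were higher there, but that from 15646000 had 24.4%. The next blocks of the trans share by the mean were that from 16146000 to 16245999 (69.6% and 69.1%) and that from 16346000 to 16445999 (69.2% and 68.9%). The latter spans the last part of the cluster. The lowest block by the mean, from 15546000 to 15645999 beyond T-DOM, had 65.3% and 64.7%, although others were lower in forelimb alone, followed by the blocks from 15046000 (65.1% in both) and from 17746000 (65.1% and 65.3%).

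The makeup of the partners changed along the segment as well. Microchromosomes took 20.5% of the partners beyond T-DOM in forelimb and 20.8% in hindlimb, 24.5% in both in T-DOM, 25.4% and 26.2% in the HoxD cluster, 23.3% and 23.9% in C-DOM, and 21.8% and 22.1% beyond C-DOM. Against the background, the ratio of microchromosomes was thus 0.760 and 0.762 beyond T-DOM and 0.944 and 0.962 in the cluster. Among blocks the share ran from 19.0% (mean of both libraries, 15346000 to 15445999) to 25.7% (16246000 to 16345999, from the end of T-DOM into the cluster). Both profiles were alike in the libraries, with Spearman correlations over the 30 blocks of 0.95 for the trans share and 0.98 for the microchromosome share. Blocks with a high trans share also tended to have a high microchromosome share (0.70 in forelimb, 0.63 in hindlimb), as a description, since neighbouring blocks share domains.

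**Figure D3:**
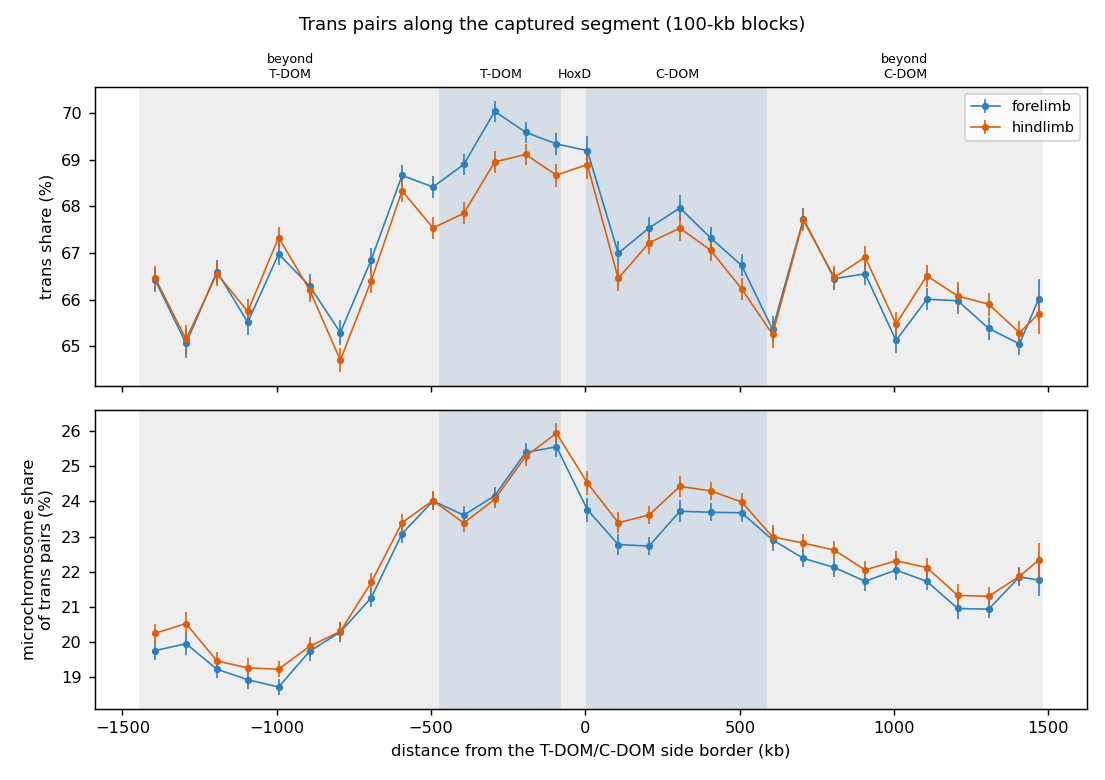
Trans share (top, percent) and microchromosome share of the partners (bottom, percent) in 30 blocks of 100 kb (the last one shorter), by distance in kb from the border of the T-DOM and C-DOM sides, with 95% counting intervals. Shaded bands mark the parts of the segment, with a C-DOM longer than that of the study. With pairs of more than 3 Mb on chromosome 7 as the rest, the trans share is highest in T-DOM and the cluster, which does not hold among all pairs. Forelimb points of the trans share lie above the hindlimb points in 19 of 30 blocks, among them all blocks of T-DOM, the cluster and C-DOM.

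The limbs were compared on the same measures. In T-DOM the trans share was lower in hindlimb by 0.846 percentage points (adjusted p = 1.27e-22 by Fisher's exact test), and by between 0.768 and 1.01 points in each of the 4 lanes, which are not separate libraries. In C-DOM it was lower by 0.387 points, whereas beyond C-DOM it was higher by 0.227 points. By block, the trans share was lower in hindlimb in 19 of 30. The microchromosome share was higher in hindlimb in the whole segment (by 0.336 points), and by 0.315 points beyond T-DOM, 0.813 in the cluster, 0.568 in C-DOM and 0.350 beyond C-DOM (adjusted p of 0.00781 or less by Fisher's exact test for each). The background share of microchromosomes rose as well, from 27.0% to 27.3%, so that the ratio of the whole segment to it stayed at 0.822 and 0.824. In T-DOM the microchromosome share differed by -0.041 points (adjusted p = 0.666 by Fisher's exact test), with values from -0.190 to 0.158 in single lanes.

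By chromosome, 10 of 32 took a larger share of the partners in hindlimb (31.2%) and 2 a smaller one (6.25%). The larger shares were those of chromosome 10 and of microchromosomes 14, 15, 17, 18, 19, 23, 26, 28 and 33, and the smaller ones those of chromosomes 3 and 4. Chromosome 33 had the highest ratio among them, 1.06 (0.127% and 0.135% of the partners), and chromosome 28 went from 0.465% to 0.488% (ratio 1.05, interval 1.022 to 1.074). The background moved too: in the mates that do not involve the segment, 19 chromosomes took a larger share in hindlimb and 5 a smaller one, and for chromosome 28 the log2 difference was 0.02 there against 0.07 in the segment. At the window level 2 were higher in hindlimb (0.2%) and none lower (0%), by Fisher's exact test with adjustment over 998 windows, of which 133 had an unadjusted p under 0.05. They were the window from 4 to 5 Mb of chromosome 28, with 2860 forelimb and 3175 hindlimb pairs, and that from 1 to 2 Mb of chromosome 10, with 2923 and 3243 pairs (ratio 1.11 and adjusted p = 0.0209 by Fisher's exact test for each).

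The HoxD cluster was then compared with the rest of the segment, to ask whether the genes themselves had partners of their own. By Fisher's exact test with adjustment over 998 windows, 10 windows took a larger share of the cluster's pairs in both libraries (1%) and 1 a smaller one (0.1%). The highest called window was that from 1 to 2 Mb of chromosome 33, where 34 cluster pairs stood against 18.5 expected in forelimb (ratio 1.87, interval 1.29 to 2.62) and 38 against 21.0 in hindlimb (1.83, 1.29 to 2.53). The window from 5 to 6 Mb of chromosome 27 had 47 pairs against 26.5 (1.80) and 50 against 29.0 (1.74). Windows of chromosome 17 (6 to 7 Mb, 85 and 88 pairs, 1.601 and 1.561) and chromosome 14 (4 to 5 Mb, 88 and 77 pairs, 1.69 and 1.46) followed.

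The window from 32 to 33 Mb of chromosome 2, in which the study places the HoxA cluster, had 72 cluster pairs against 49.4 expected in forelimb (1.47, interval 1.15 to 1.86) and 89 against 53.8 in hindlimb (1.67, 1.34 to 2.07). Its forelimb value lies at the limit (adjusted p = 0.0498 by Fisher's exact test, against 0.00183 in hindlimb), and with no quality limit it was not called (adjusted p = 0.0899 in forelimb by Fisher's exact test). With the whole segment this window was near the background, at 1.04 and 1.09. The 5 remaining higher windows, on chromosomes 19, 28, 22, 11 and 8, had ratios between 1.423 and 1.596. The lower window was that from 29 to 30 Mb of chromosome 5, with 28 and 30 pairs (0.543 and 0.590). Of the 10 higher windows, 8 were on microchromosomes, whose share among the partners of the cluster, and of T-DOM beside it, is above that of the segment. The median ratio of cluster to rest was itself raised over most microchromosome windows. From the lowest to the highest quartile of microchromosome share it was 0.946, 1.18, 1.30 and 1.31. Over the quartiles of macrochromosome windows it ran from 0.851 to 0.996. Whether called windows differ from other windows of their class was not tested. By the smaller of both ratios, the 5 highest windows also included 2 that were not called, that from 14 to 15 Mb of chromosome 20 with 12 pairs in each library (2.07 and 1.93) and that from 11 to 12 Mb of chromosome 18 with 3 and 2 pairs.

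Depth limits this comparison, since the cluster gave 43645 and 44926 pairs in all. In windows of 100 kb with at least 500 background mates, 0 of 9608 were called in both libraries by Fisher's exact test, 0 in forelimb and 2 in hindlimb, while 486 and 536 had an unadjusted p under 0.05. The 2 blocks lay inside called windows, which contain their pairs, so this is partly built in. At 5.3 Mb of chromosome 27 there were 8 forelimb and 20 hindlimb pairs (ratios 1.62 and 4.07). At 6.0 Mb of chromosome 17 there were 14 and 19 (2.32 and 3.41).

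**Figure D4:**
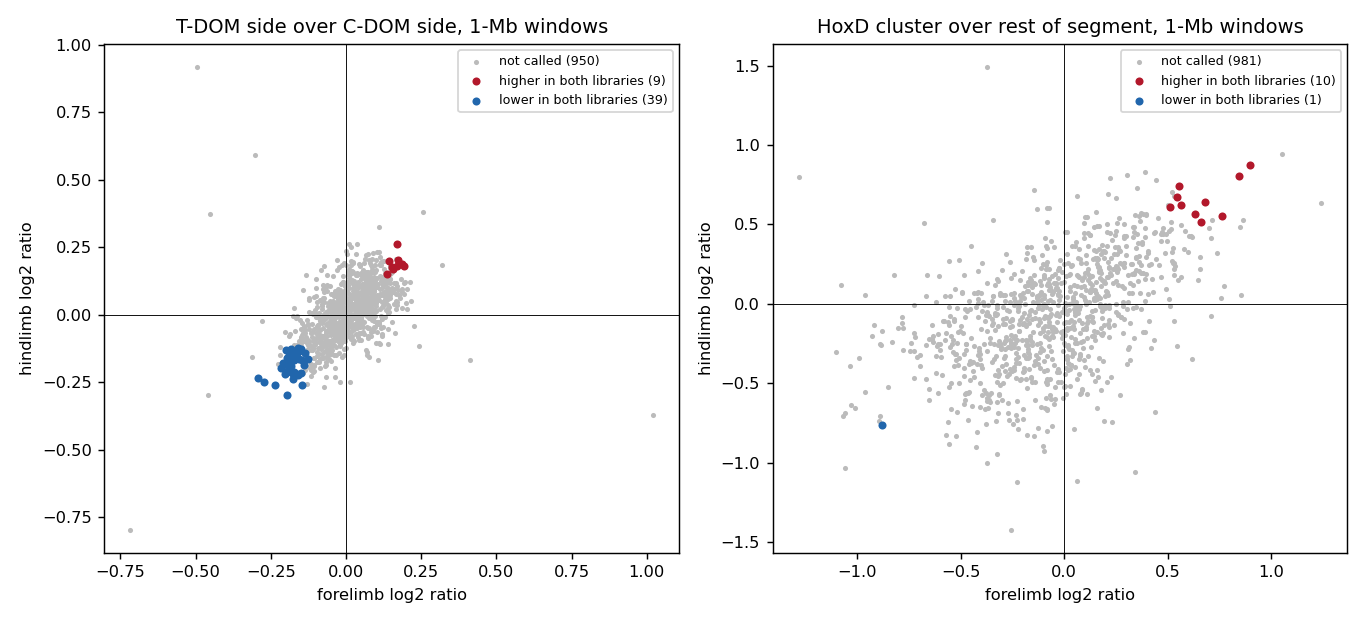
Log2 ratio of 1-Mb partner windows in the forelimb library against the hindlimb library, for the T-DOM side over the C-DOM side (left) and the HoxD cluster over the rest of the segment (right). Red windows were higher and blue windows lower in both libraries by Fisher's exact test after adjustment, 9 and 39 on the left and 10 and 1 on the right, and windows without a pair in one of the groups are not drawn.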

How the data were processed

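The authors aligned and filtered the capture Hi-C reads with HiCUP on galGal5 and deposited lists of valid pairs, 1 list per library, in which each mate has a position, a DpnII fragment and a mapping quality score (35552269 forelimb and 39556492 hindlimb pairs). Scores of 30 or more were required at both ends, and 20987 and 22308 segment pairs with unplaced contigs or the mitochondrial genome were left out. The deposited matrices were not used. Positions were counted per chromosome, per 1-Mb window and per 100-kb block with numpy 2.4.6, pandas 2.3.3 and scipy 1.17.1. Ratios carry exact conditional intervals and shares Clopper-Pearson intervals, at 95%. Partner chromosomes (1.1-fold) and partner windows (1.25-fold) were called without a test, where both libraries passed the fold limit in the same direction. Elsewhere Fisher's exact test (two-sided) was adjusted by Benjamini-Hochberg over all features with at least 500 background mates. A window or chromosome was then called where the adjusted p was under 0.05 in both libraries with the same direction. Between limbs, 1 test compared the libraries, and calls were made at an adjusted p under 0.05. Chromosomes 30 and 31 held fewer mates and were not compared. Named were the 3 highest and 3 lowest chromosomes and blocks, the 5 highest and 5 lowest windows by mean log2 ratio, called windows for the side, limb and cluster comparisons, and the 5 cluster windows with the highest smaller ratio; others named were picked after their values were seen. The members and lists were chosen with earlier results of these data known. The procedure was tested on simulated data, where 50 of 50 windows raised 1.5-fold with the whole segment, 49 of 50 with the T-DOM side and 3 of 50 with the cluster were recovered. Of windows raised 1.25-fold, 0 of 50, 39 of 50 and 0 of 50 were recovered. At 1.1-fold it was 0 of 50 in each. Differences of the size left at 1.25-fold can thus be missed in the tests of the T-DOM side and the cluster. Shares were rescaled to the same total after windows were raised, so the ratios obtained were below the folds named. Windows raised 1.1-fold kept little of their excess. For the T-DOM side and the cluster, their 0 of 50 thus does not show whether differences of 1.1-fold are missed. With the whole segment the call is a fixed limit of 1.25-fold, which windows raised 1.1-fold or 1.25-fold thus fell short of by design. Their 0 of 50 does not show what can be missed. No sequence is shown, since no genome of the files' build was used here.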

Additional observations from a re-analysis of the deposited data

Results flagged for a closer look

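In 5 contrasts a part of the segment differed from the rest of it unequally in the limbs, by a test of that difference itself (Wald test of the log2 odds ratio, hindlimb minus forelimb, 10 tests, adjusted p from 6.66e-17 to 0.00418). For the trans share the difference was -0.053 in T-DOM, -0.017 in C-DOM and 0.038 beyond C-DOM, and for the microchromosome share it was -0.038 in T-DOM and 0.023 in C-DOM. The rest of the segment contains the other parts, so the contrasts are not separate results, and opposite signs between parts are partly built in. These are small shifts measured with many pairs of 1 library per limb, and a difference of this size between libraries of the same limb was not tested.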

How the results depend on the processing

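Each limb has 1 library, so no replicate was left out, and depth per window limits the cluster comparison most. No paired analysis was possible because no limb has more than 1 library. Single lanes for the trans shares, the T-DOM difference between limbs, the correlations against the rest of chromosome 7 and the pair settings for the HoxA window were added after seeing the data.

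Chromosomes above 1.1-fold numbered 1, and 2 at a mapping quality of 40 or more, 0 in lane 2 alone, 0 without the most frequent fragments, 0 against the rest of chromosome 7, 0 at 25% above and 9 against all mates, cis and trans. Those below numbered 19, and 9 against all mates. The log2 ratio of microchromosomes, -0.28 in both libraries, was -0.31 in both at a quality of 40, -0.28 in forelimb lane 2 and -0.28 in hindlimb lane 1, -0.28 and -0.27 without the most frequent fragments, -0.13 in both against the rest of chromosome 7, and turned to 0.14 in forelimb and 0.13 in hindlimb against all mates. Likewise, against all mates chromosome 1 moved to -0.27, chromosome 2 to -0.16 and chromosome 16 to 0.035 on the log2 scale, and against the rest of chromosome 7 chromosome 1 had -0.0041. By construction, all mates include those within a chromosome.

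Windows above the limit (84) numbered 4 against the rest of chromosome 7, 416 at 1.1-fold, 0 at 1.5-fold, 177 in windows of 500 kb and 42 in windows of 2 Mb. Those below (159) numbered 67 against the rest of chromosome 7, 67 at 1.5-fold, 290 at 500 kb and 87 at 2 Mb. Here and below, smaller windows are more numerous and larger ones fewer. Counts at other window sizes are therefore not parts of the same total, and a changed count does not mean a changed share.

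For the T-DOM and C-DOM sides, single lanes, which hold fewer pairs, gave 1, 1, 0 and 1 chromosomes higher where all lanes gave 5, and 2, 2, 1 and 1 lower where they gave 9, and the landscapes alone gave 1 lower. Higher windows (9) numbered 14 without the cluster, 3 in the landscapes alone and 1 at 500 kb, and lower windows (39) numbered 0 and 6 in the latter pair of settings.

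Between limbs, single lanes gave 0, 1, 4 and 0 chromosomes higher in hindlimb where all lanes gave 10, and lanes 1, 2 and 4 gave 1 lower each where they gave 2. Higher windows (2) numbered 4 with no quality limit and 6 at 2 Mb, and lower windows (0) numbered 1 and 4. For the HoxD cluster, windows of 100 kb gave 0 higher and 0 lower. The 1 lower window was not called (0) at a quality of 40, with no quality limit, or with each fragment pair counted once.

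The trans share of T-DOM (69.5% in forelimb, 68.6% in hindlimb) was 69.3% and 68.4% at a quality of 40, 69.6% and 68.7% with each fragment pair counted once, 68.5% in hindlimb lane 1, 30.2% and 28.8% among all pairs with a mate in it, and 82.8% and 82.4% beyond 10 Mb. That of the cluster was 70.0% and 68.5% in lane 2, 68.9% and 69.5% in lane 4, 18.002% and 17.94% among all pairs, and 83.2% and 82.9% beyond 10 Mb. The lower trans share of T-DOM in hindlimb had the same sign under each of these settings. Of 134 further values for named chromosomes and windows, 96 moved by less than their spread, 34 by more and 4 are the changes of sign given above. The causes of these shifts were not tested.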

Other observations

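In the RefSeq gene table of another chicken assembly (GRCg7b), the 9 HOXB genes listed are on chromosome 27 and the 6 HOXC genes on chromosome 34, beside 11 HOXA genes on chromosome 2. Of the 10 windows with an excess of pairs with the HoxD cluster, 1 is on chromosome 2 and 1 on chromosome 27 of galGal5. The other 8 are on chromosomes 33, 17, 14, 19, 28, 22, 11 and 8. Chromosome numbers were not matched between the assemblies, so whether any of these 8 carries a Hox cluster was not determined. Whether Hox clusters are over-represented was not tested. Whether the window of chromosome 27 contains the HOXB genes, and on which chromosome of galGal5 the HOXC genes lie, was not determined here, because positions cannot be carried between the assemblies.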
